A study of Rattus norvegicus with 18 samples.

Results

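Transcripts of 8 genes of the extracellular matrix were followed in rat gastrocnemius muscle. The genes were picked by name and Ensembl identifier, without a threshold on any value but with earlier results of these data known, and are 8 of the 32883 gene identifiers in the deposited count table. They encode the chains of fibrillar collagen Col1a1, Col1a2 and Col3a1, the basement membrane collagen chain Col4a1, the matrix glycoproteins Sparc and Fn1, and the matrix enzymes Mmp2 and Lox. All 8 lie on the chromosome expected for their symbol.

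Male Brown Norway rats (BN/SsNOlaHSD) were killed at 6 or 28 months of age, and their gastrocnemius, a mixed hindlimb muscle of the calf, was sequenced after removal of ribosomal RNA. The 3 groups of 6 separate animals were young rats fed ad libitum (AL) at 6 months, aged rats fed AL at 28 months, and aged rats under caloric restriction (CR) at 28 months. All rats ate the same diet, called CRM, and were caged singly from maturity. The CR rats received 55% of the AL intake in 1 daily morning ration, so the amount of food and its timing differed together. No young CR group was analysed here, so the effect of CR could be read only in aged muscle. The comparisons address how transcripts for the muscle matrix differ with age under free feeding, and whether they differ between the diets at the same age.

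The connective tissue of skeletal muscle carries force from the fibres to the tendon and surrounds each fibre with a basement membrane. Collagen types I and III form its fibrils, and type IV collagen forms the sheet-like network of the basement membrane. These chains are made chiefly by fibroblasts and, for type IV collagen, also by endothelial cells and muscle fibres, and after secretion they are cross-linked by lysyl oxidase (Lox) and degraded by proteases such as Mmp2. In whole muscle, fewer cells that make a transcript and less of it per cell cannot be told apart.

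Each library held 17335401 to 27432767 counts in total (median 21569117). In principal components of log2 CPM, which are counts scaled to a common library size, 2 libraries stood apart on the first component, rat 8 of the aged AL group at 110.9 and library 8828 of the aged CR group at 77.7, while no other library was above 8.98. The results that rest on these 2 libraries are given below with and without them. For 3 aged CR libraries, called 8826, 8827 and 8828 here, the column names could be tied to the group but not to a single rat. The column of library 8826 carries the same sample number as that of rat 15. Their counts were not identical, but libraries of the same rat would also differ, so this does not show separate animals. Both libraries were used as separate rats. The last numbers in the column names form a separate block for each group, and the column names do not say what they number. Anything that follows these blocks, such as handling, cannot be told apart from the groups. The deposited table names genes by identifier alone, so muscle, fibroblast and tendon markers were not analysed here and the tissue label could not be checked against them.

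In Rnor_6.0, Col1a1 (ENSRNOG00000003897) lies on the plus strand of chromosome 10 from 82745801 to 82762789 and has 51 merged exons with 5825 exon bases. Col1a2 (ENSRNOG00000011292) lies on the plus strand of chromosome 4 from 31534225 to 31569151 and has 53 exons. Col3a1 (ENSRNOG00000003357) occupies 52023295 to 52059217 on the plus strand of chromosome 9, and Fn1 (ENSRNOG00000014288) 78900103 to 78969078 on its minus strand. Sparc (ENSRNOG00000012840) was annotated on the minus strand of chromosome 10 from 40742400 to 40764185 and Col4a1 (ENSRNOG00000016281) on the plus strand of chromosome 16 from 83522162 to 83632153. Mmp2 (ENSRNOG00000016695) is on the minus strand of chromosome 19 from 15542765 to 15570611. Lox (ENSRNOG00000014426) is on the minus strand of chromosome 18 from 47500330 to 47577819, a span of 77490 bases against 12752 in the RefSeq annotation of GRCr8. The longer span comes from 2 exons with 280 bases upstream of a main block of 8 exons with 4527 bases. Reads were counted over all annotated exons of a gene, so each value below is the sum over its exons.

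The promoters of Sparc and Col4a1 are shown because these genes were highest of all 18 libraries in the same rat, rat 8. Both windows run from 250 bases before the transcription start to 50 after it, 5′ to 3′ on the strand of the gene, and were taken from RefSeq on GRCr8. RefSeq windows matched 3 of the 8 genes, Col1a2 among them. The motifs searched on both strands were TATAAA, the TATA box, CCAAT, the CAAT box, GGGCGG, the GC box, and CAGACA, a sequence that Smad proteins can bind, and their matches are in capitals.
Sparc, chr10:40038767-40039066, minus strand: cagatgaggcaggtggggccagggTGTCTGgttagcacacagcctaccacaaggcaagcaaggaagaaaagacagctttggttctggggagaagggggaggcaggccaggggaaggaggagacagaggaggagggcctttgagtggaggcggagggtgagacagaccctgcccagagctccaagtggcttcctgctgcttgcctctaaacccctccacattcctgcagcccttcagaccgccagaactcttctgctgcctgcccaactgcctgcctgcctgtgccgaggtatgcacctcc
Col4a1, chr16:84885347-84885646, plus strand: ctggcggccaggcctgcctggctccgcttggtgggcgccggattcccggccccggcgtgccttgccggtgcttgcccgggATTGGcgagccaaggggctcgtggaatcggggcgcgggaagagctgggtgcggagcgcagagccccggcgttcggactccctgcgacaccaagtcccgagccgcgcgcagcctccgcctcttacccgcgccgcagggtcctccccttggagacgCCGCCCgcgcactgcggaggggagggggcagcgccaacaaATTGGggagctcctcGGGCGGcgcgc
The Sparc window held a single match, to CAGACA, with its first base at position -226 from the start. The Col4a1 window held CCAAT at -170 and 24 and GGGCGG at -16 and 39. Of 33469 promoter windows of this length, 21.1% held CAGACA, 37.5% CCAAT, 33.1% GGGCGG and 14.2% TATAAA. The 2 windows shared none of the 4 motifs, which says only that these letters were not found in both.

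Levels were first ordered within each group by CPM per kilobase of exon, which allows genes of different length to be compared. In young muscle Sparc was highest with a mean level of 310.5 ± 84.3 CPM per kilobase (SD, n = 6), followed by Col3a1 with 277 ± 49.4 (SD, n = 6). These neighbours overlapped, and Sparc was the higher of the pair in 4 of 6 rats. Next came Col1a1 with 158 ± 25.1 CPM per kilobase (SD, n = 6), above Col4a1 with 78.1 ± 19.6 (SD, n = 6) in every young rat. Fn1 and Mmp2, with 37.8 ± 10.8 and 37.2 ± 9.15 CPM per kilobase (SD, n = 6 each), did not differ beyond their spread. Lox was far lower, at 5.69 ± 3.08 CPM per kilobase (SD, n = 6).

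The order of the collagens was different in aged rats fed AL. Col4a1, at 63.7 ± 35.7 CPM per kilobase (SD, n = 6), came before Col1a1, at 44.6 ± 21.8 (SD, n = 6), and was the higher of the pair in 4 of 6 rats. In aged CR rats Col1a1 was again before Col4a1, with 92.0 ± 48.9 and 47.5 ± 20.8 CPM per kilobase (SD, n = 6 each), and was the higher in 4 of 6 rats. Sparc and Col3a1 led the order in all 3 groups, and Lox was below the other detected genes throughout.

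Col1a2, which encodes the chain that pairs with that of Col1a1 in type I collagen, was all but absent from the table. Single libraries had 0 to 3 counts, with 7 counts over the 6 young rats, 1 over the aged rats fed AL and 1 over the aged CR rats, against 2500 to 9987 counts of Col1a1 per library in aged rats fed AL. The annotated span of Col1a2, 34927 bases, is close to the 34928 of RefSeq, and no other gene of the table overlaps it. Why so few reads were assigned to this gene was not tested. It did not pass the filter on low counts, no fold change is given for it, and the planned ratio of the Col1a1 and Col1a2 chains could not be computed. The counts below thus concern 7 of the 8 genes.

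Between aged and young rats fed AL, Col1a1 fell and no other of the 7 genes passed the test. With edgeR's quasi-likelihood test over all genes, 1 of 7 was called (adjusted p up to 0.05 with a fold change from 1.5 up), where 3.39% of the 14646 genes tested were called, and 1.52% in the lower direction. It was also the 1 gene of the 7 with an unadjusted p under 0.05, which 22.3% of all genes had. Log2 fold changes were below 0 for 6 of the 7 genes, as for 49% of all genes tested, with a median of -0.24 against 0.007 over all genes. The 6 include Sparc at -0.01, whose sign depended on the processing, and with library totals as the only scaling 4 of 7 were below 0, with a median of -0.02 against 0.18 over all genes. Single rats moved the median too, to -0.52 without rat 7, -0.44 without rat 8 and -0.16 without rat 10, when 4 of 7 were below 0. Between aged CR and young rats all 7 genes had negative log2 fold changes, against 49.3% of all genes, from -0.98 for Lox to -0.42 for Mmp2, with a median of -0.65 against 0.005 over all genes. None of the 7 was called by edgeR's test, where 1.98% of all genes were, and DESeq2's Wald test over all 18 libraries called none either. DESeq2's Wald test on these 2 groups alone called Lox (adjusted p = 0.0309). Without rat 8 and library 8828, edgeR's test called Col4a1 (adjusted p = 0.0229). In edgeR's fit of all 18 libraries, 4 of the 7 had an unadjusted p under 0.05, Col4a1, Lox, Mmp2 and Fn1. In the lower direction, 10.1% of all genes had such a p. Between the 2 aged groups, edgeR called 0 of the 7 genes against 1.38% of all genes, and DESeq2 over all 18 libraries 0. Col1a1 was higher and Lox lower in CR at an unadjusted p under 0.05, which 15.3% of all genes reached. The comparisons share groups, so their directions are not independent of each other.

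**Figure D1:**
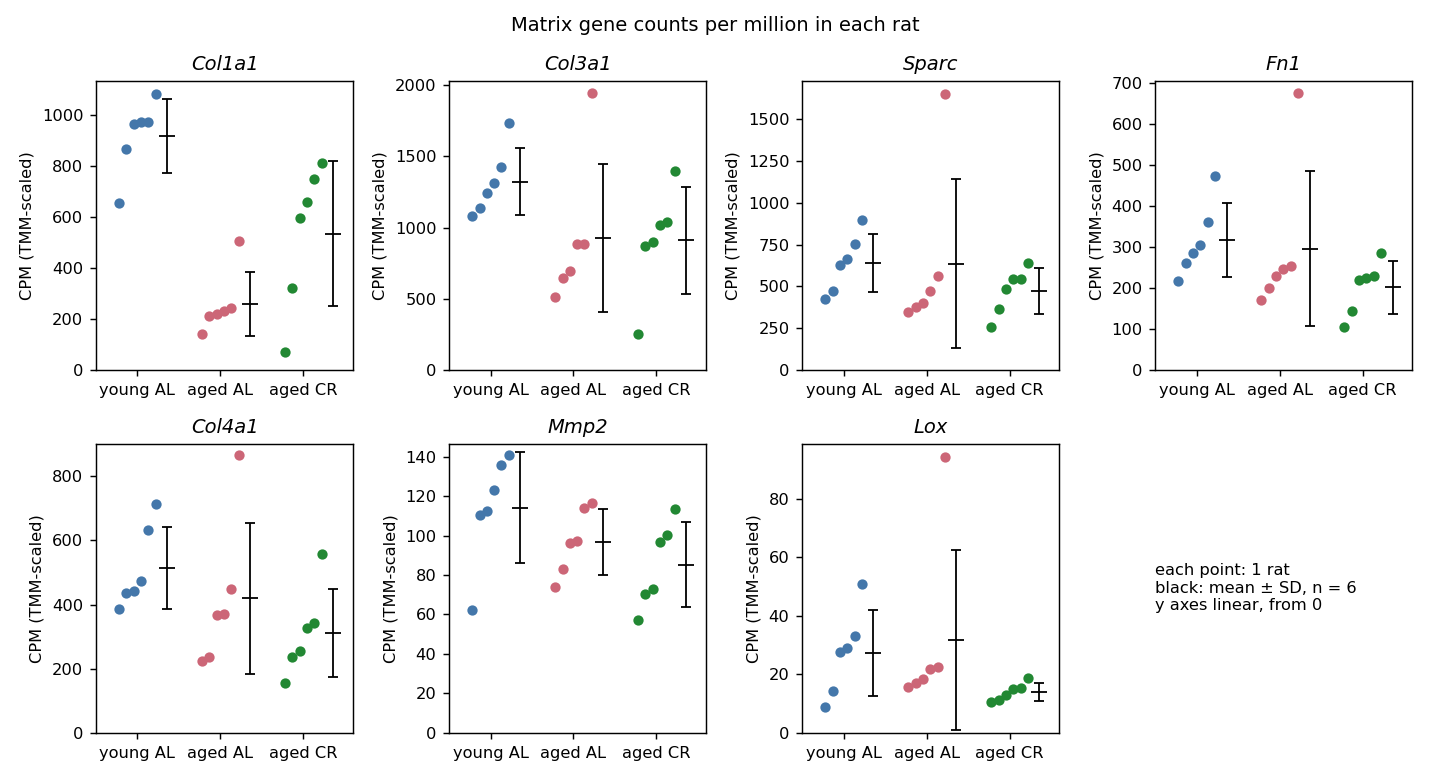
TMM-scaled CPM of the 7 detected matrix genes in each of the 18 rats, with the mean ± SD of each group of 6 in black and a linear y axis from 0 for each gene. All 6 aged rats fed AL lie below all young rats for Col1a1, while the other genes overlap, and rat 7 (Col3a1, Fn1, Lox) or rat 8 (Sparc, Col4a1) lies far above the other aged rats fed AL.

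Col1a1, the alpha 1 chain of type I collagen, had 656 to 1084 CPM in young rats (median 969), 141 to 508 in aged rats fed AL (median 227) and 70.2 to 815 in aged CR rats (median 628). The young and the aged AL values did not overlap, and the highest aged AL value came from rat 7. Non-overlap of these groups in the lower direction was found for 1.11% of all genes tested. The mean fell from 919.7 ± 146 to 260.0 ± 127 CPM (SD, n = 6 each), or 3.54-fold. The log2 fold change was -1.82 (standard error 0.41, 95% interval -2.69 to -0.95, adjusted p = 0.0177 by the Benjamini-Hochberg method, edgeR's quasi-likelihood test), lower in 6 of 6 aged rats. Over all alternative settings it stayed between -2.13 and -1.63 with an adjusted p of at most 0.0443. The call was lost only at a stricter adjusted p of 0.01 in edgeR's fit of all 18 libraries. Other scalings in that fit gave an adjusted p of 0.0182 to 0.0315. DESeq2's Wald test gave 0.000199 over all 18 libraries and 1.97e-09 on the 2 groups alone, where edgeR's test gave 0.0058. Without rat 8 and library 8828 the log2 fold change was -1.79 (adjusted p = 0.0167, edgeR's quasi-likelihood test).

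Aged CR rats were spread over nearly the whole range of the other groups for Col1a1. Of their 6 values, 4 lay above the highest aged rat fed AL, and that of rat 13, at 70.2 CPM, lay below the lowest. The mean was 536 ± 285 CPM (SD, n = 6), a log2 fold change of 1.04 over aged rats fed AL (standard error 0.40, 95% interval 0.19 to 1.89). This difference had an adjusted p of 0.198 with edgeR's quasi-likelihood test and was not called. Without rat 13 alone it was 1.27 with an adjusted p of 0.0327 (same test) and was called, whereas without rat 8 and library 8828 it was 1.13 with an adjusted p of 0.138. Against young rats the log2 fold change of aged CR rats was -0.78 (95% interval -1.63 to 0.07, adjusted p = 0.29, same test), so the interval held no difference as well as falls beyond the 1.5-fold minimum for a call.

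Col3a1, the chain of type III collagen, had 1080.2 to 1732 CPM in young rats (median 1278), 512 to 1944 in aged rats fed AL (median 789.8) and 252 to 1396 in aged CR rats (median 957). In aged rats fed AL, 5 of 6 values lay below the lowest young rat and the remaining value, of rat 7, above the highest. The log2 fold change of aged against young rats fed AL was -0.51 (standard error 0.33, 95% interval -1.21 to 0.19), with an adjusted p of 0.379 by edgeR's quasi-likelihood test. Without rat 7 it was -0.87 (adjusted p = 0.0933, same test). Aged CR rats differed from young rats by -0.54 (95% interval -1.24 to 0.17, adjusted p = 0.389, same test), and by -0.34 without rat 13. The log2 difference between the aged groups was -0.03 with an interval from -0.73 to 0.67 and an adjusted p of 0.983 (same test), and it turned to 0.33 without rat 7 and 0.17 without rat 13. The aged groups were thus not resolved for this collagen.

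**Figure D2:**
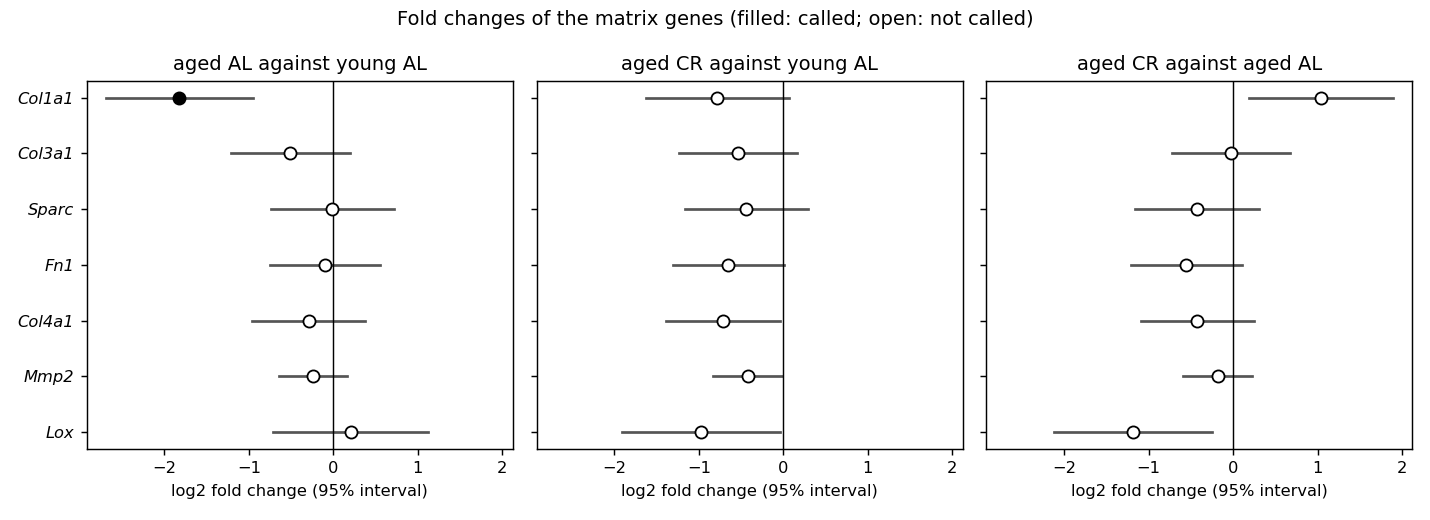
Log2 fold changes of the 7 detected matrix genes in the 3 comparisons, with 95% intervals as horizontal lines, filled circles for called genes and open circles for the rest. The only filled circle is Col1a1 between aged and young rats fed AL at -1.82, and all 7 circles are below 0 between aged CR and young rats.

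The balance of collagen transcripts within a rat does not depend on how libraries are scaled. The ratio of Col1a1 to Col3a1 counts was 0.501 to 0.900 in young rats, 0.248 to 0.334 in aged rats fed AL and 0.279 to 0.738 in aged CR rats. No aged rat fed AL reached the lowest young rat, and rat 7, which was highest in both collagens among the aged rats fed AL, had a ratio of 0.261 like the rest of its group. The mean log2 ratio was -0.52 ± 0.33 in young rats and -1.81 ± 0.17 in aged rats fed AL (SD, n = 6 each), a difference of -1.28 (p = 0.00216 in a two-sided exact permutation test, and 0.00649 after adjustment over the 6 ratios tested). This p is the smallest that 6 rats against 6 allow. Leaving out each library in turn gave differences from -1.38 to -1.21.

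In aged CR rats the Col1a1 to Col3a1 ratio was higher than in aged rats fed AL. The mean log2 ratio was -0.96 ± 0.57 (SD, n = 6), 0.85 above aged rats fed AL (p = 0.00866 in the same exact test, 0.0173 after adjustment). Above the highest aged rat fed AL were 5 of the 6 CR values, and rat 13, at 0.279, was within the range of that group. The difference held when any single library was left out, from 0.75 to 1.03 with adjusted p of at most 0.0476 (exact permutation test). Between aged CR and young rats it was -0.43 (exact permutation p = 0.147, adjusted p = 0.177), which did not pass the test, and -0.26 without rat 13.

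The ratio of Col1a1 to Col4a1 counts, fibrillar against basement membrane collagen, was 1.39 to 2.51 in young rats and 0.269 to 1.37 in aged rats fed AL. The groups did not overlap, although rat 7, at 1.37, came next to the lowest young rat. The difference of mean log2 ratios was -1.51 (p = 0.00216 in the exact permutation test, 0.00649 after adjustment). The lowest ratio, 0.269, was that of rat 8, and without rat 8 the difference was -1.26. Aged CR rats fell into separate levels, with 2.02 to 3.19 in 4 libraries, 0.447 in rat 13 and 0.580 in library 8828. Their difference from aged rats fed AL, 1.18, did not pass the test (exact permutation p = 0.0779, adjusted p = 0.117) but did without rat 13 (1.52, adjusted p = 0.0357, same exact test). Their difference from young rats was -0.32 (exact permutation p = 0.502) and turned to 0.01 without rat 13.

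**Figure D3:**
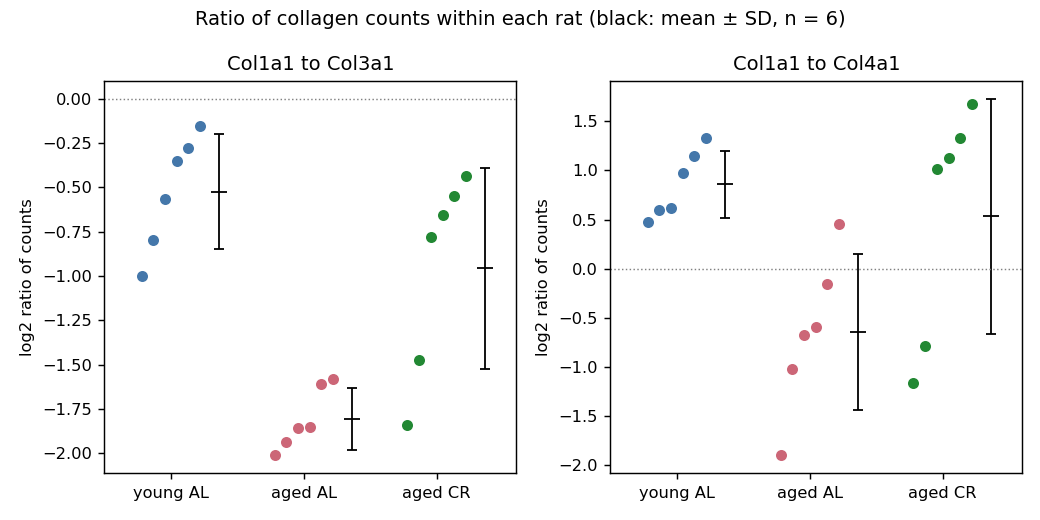
Log2 ratio of Col1a1 to Col3a1 counts (left) and of Col1a1 to Col4a1 counts (right) in each rat, with the mean ± SD of each group of 6 in black and a dotted line at equal counts. In both panels all 6 aged rats fed AL lie below all 6 young rats, and for Col1a1 to Col3a1 5 of 6 aged CR libraries lie above every aged rat fed AL.

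Col4a1, the alpha 1 chain of type IV collagen, had 387 to 714 CPM in young rats (median 458), 226 to 866 in aged rats fed AL (median 369.9) and 157 to 557 in aged CR rats (median 291). The highest value of each aged group came from the library that stood apart on the first component, rat 8 and library 8828. The log2 fold change of aged against young rats fed AL was -0.29 (95% interval -0.96 to 0.38, adjusted p = 0.622, edgeR's quasi-likelihood test), and without both libraries it was -0.64 (adjusted p = 0.0905). For aged CR against young rats it was -0.72 (standard error 0.32, 95% interval -1.39 to -0.04, unadjusted p = 0.0353, adjusted p = 0.222, same test). Without rat 8 and library 8828 the latter became -0.96 with an adjusted p of 0.0229 (same test), which is past both thresholds. The cause of the high values in these 2 libraries was not tested. Aged CR and aged AL rats differed by -0.42 (95% interval -1.09 to 0.25, adjusted p = 0.572, same test), which was -0.07 without rat 8 alone and -0.67 without library 8828 alone.

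Sparc encodes a secreted glycoprotein that binds collagen and is present at its assembly into fibrils. It had 428 to 895 CPM in young rats (median 646), 345 to 1650.0 in aged rats fed AL (median 439.6) and 258 to 642 in aged CR rats (median 515). Rat 8, at 1650.0 CPM, was nearly 3 times the next aged rat fed AL, rat 7 at 564. The log2 fold change of aged against young rats fed AL was -0.01 (95% interval -0.74 to 0.72, adjusted p = 0.988, edgeR's quasi-likelihood test) and had no settled direction. Several scalings and filters gave positive values, the largest 0.29 with library totals as the only scaling. Without rat 8 and library 8828 the log2 fold change was -0.57 (adjusted p = 0.131, same test). Aged CR rats differed from young rats by -0.44 (95% interval -1.17 to 0.29, adjusted p = 0.517) and from aged rats fed AL by -0.43 (95% interval -1.16 to 0.31, adjusted p = 0.606, same test), which turned to 0.09 without both libraries.

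Fn1 encodes fibronectin, a glycoprotein that links cell surface integrins to collagen. Its values were 217 to 474 CPM in young rats (median 296), 170.1 to 677 in aged rats fed AL (median 238) and 106 to 285 in aged CR rats (median 222). Rat 7 alone set the top of the aged AL group, with the next rat at 255 CPM. The log2 fold change of aged against young rats fed AL was -0.10 (95% interval -0.76 to 0.55, adjusted p = 0.883, edgeR's quasi-likelihood test), and without rat 7 it was -0.53 (adjusted p = 0.185, same test). In aged CR rats it was -0.65 against young rats (95% interval -1.31 to 0.01, unadjusted p = 0.0482, adjusted p = 0.255) and -0.55 against aged rats fed AL (95% interval -1.21 to 0.11, adjusted p = 0.425, same test). The latter was -0.12 without rat 7. For aged CR against young rats the 95% interval just includes 0 while the unadjusted p of edgeR's test is under 0.05. Interval and test thus differ at this margin. No young rat was as low as the lowest rat of either aged group.

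Mmp2, or gelatinase A, is a protease that degrades denatured collagen and type IV collagen. It was the gene with the least spread in aged rats fed AL, with a coefficient of variation of 17.2% against 97.3% for Lox. Its values were 62.4 to 141 CPM in young rats (median 118), 74.0 to 116 in aged rats fed AL (median 96.8) and 57.0 to 114 in aged CR rats (median 84.9). All 6 aged rats fed AL lay below the young median. The log2 fold changes were -0.24 in aged against young rats fed AL (95% interval -0.64 to 0.17, adjusted p = 0.484, edgeR's quasi-likelihood test) and -0.42 in aged CR against young rats (95% interval -0.83 to -0.02, adjusted p = 0.233, same test). The 95% interval of aged CR against aged AL rats, -0.59 to 0.22, excluded a rise of 1.5-fold, the minimum for a call.

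Lox encodes lysyl oxidase, the copper enzyme that starts the cross-linking of collagen and elastin. It had 8.93 to 50.8 CPM in young rats (median 28.4), 15.7 to 94.2 in aged rats fed AL (median 20.1) and 10.6 to 18.7 in aged CR rats (median 13.9). The CR values were the most even of the 3 groups, with a coefficient of variation of 21.6%, and 5 of the 6 lay below the lowest aged rat fed AL. The log2 fold change of aged CR against aged AL rats was -1.18 (standard error 0.44, 95% interval -2.12 to -0.25, unadjusted p = 0.0146, adjusted p = 0.187, edgeR's quasi-likelihood test). Without rat 7, at 94.2 CPM, it was -0.46 (adjusted p = 0.547, same test). Against young rats it was -0.98 in aged CR rats (95% interval -1.91 to -0.04, adjusted p = 0.231), which DESeq2's Wald test on these 2 groups alone called (-0.97, adjusted p = 0.0309). In aged against young rats fed AL it was 0.21 (95% interval -0.71 to 1.12, adjusted p = 0.823, edgeR's test) and turned to -0.52 without rat 7. The far upstream exons of Lox share 133 bases with a gene of the opposite strand, ENSRNOG00000018724, which had 19 to 380 counts per library. That gene was highest in rat 7 (380) and rat 4 (292), the rats with the highest Lox of their groups. In aged CR rats the order was different, since it was highest in rat 13 (163), whose Lox of 11.2 CPM was next to the lowest, and the highest Lox, in rat 15, came with 134 counts. The gene was singled out after these values were seen, and its part in the Lox values was not tested.

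**Figure D4:**
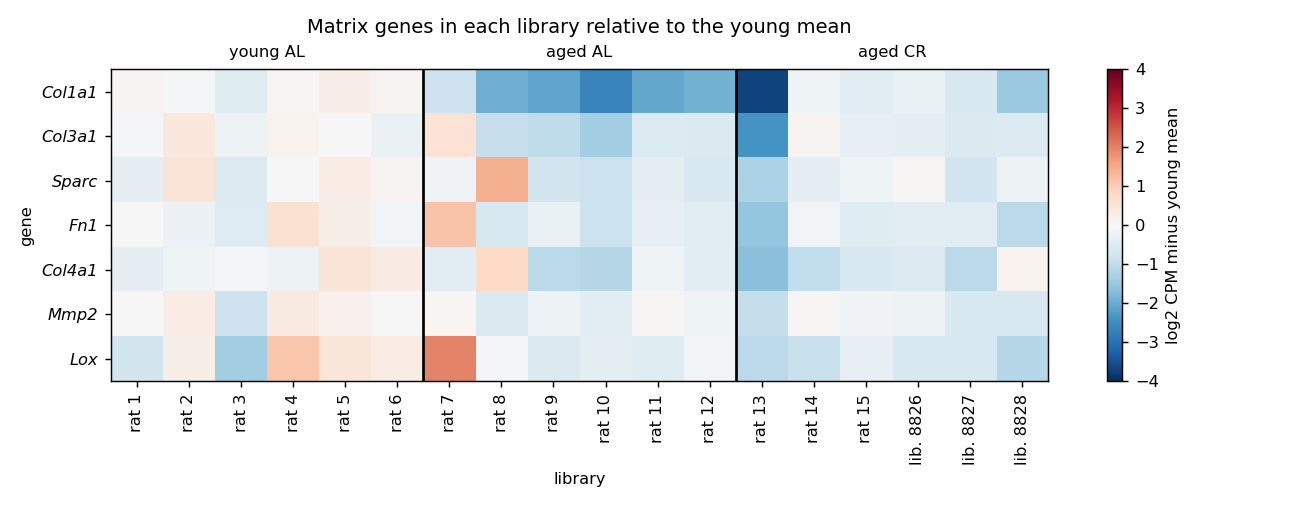
Log2 CPM of the 7 detected matrix genes in each of the 18 libraries minus the mean log2 CPM of the young rats for that gene, with blue for lower and red for higher. Col1a1 is blue in all 6 aged rats fed AL, rat 13 is blue in all 7 genes, and rat 7 is red for Lox, Fn1 and Col3a1.

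The genes were not independent across rats, since single animals were high or low in several of them at once. Rat 13, an aged CR rat, had the lowest value of all 18 rats in 6 of the 7 genes, the exception being Lox, which was lowest in rat 3. Rat 7 was highest of the aged AL group in 5 of 7 genes and rat 8 in the other two, Sparc and Col4a1. Rat 10 was lowest of that group in 5 of 7 genes, and rat 3 was lowest of the young group in 5 of 7.

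To describe this covariation apart from group differences, the deviation of log2 CPM from the group mean was compared between Col1a1 and each of the other 6 genes over the 18 rats. The relation with Fn1 was present by both measures, with Pearson's r = 0.792 (permutation p = 3e-05, adjusted p = 0.00018 over 6 relations) and Spearman's rho = 0.868 (permutation p = 0.00021, adjusted p = 0.00126). Without rats 7 and 13, which lay farthest out in Col1a1, r was 0.773 (adjusted p = 0.00618, permutation). Mmp2 gave r = 0.658 (permutation p = 0.00037, adjusted p = 0.00074) and rho = 0.641 (permutation p = 0.00528, adjusted p = 0.0106), and r = 0.627 without these rats (adjusted p = 0.0277, permutation). The relation of Col1a1 with Fn1 and Mmp2 thus did not rest on rats 7 and 13 alone. Within the groups only aged CR rats passed (exact permutation, adjusted over 18 such tests). For Fn1, r was 0.721 in young, 0.943 in aged AL and 0.948 in aged CR rats (adjusted p 0.213, 0.1 and 0.0375). For Mmp2, r was 0.819, 0.588 and 0.860 in the same order (adjusted p 0.213, 0.323 and 0.0375), with rho of 0.143 in young rats.

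Col3a1 had the highest r with Col1a1, 0.906 (permutation p = 2e-04, adjusted p = 6e-04), with rho = 0.674 (permutation p = 0.0096, adjusted p = 0.0144), but r was 0.559 without rats 7 and 13 (adjusted p = 0.0583, permutation) and no longer passed. Within the groups r was 0.143 in young rats, 0.967 in aged rats fed AL and 0.963 in aged CR rats (exact permutation, adjusted p over 18 such tests 0.776, 0.0375 and 0.0375), and whether these differ was not tested. For Lox, r was 0.460 (permutation p = 0.0024, adjusted p = 0.0036) and rho 0.645 (permutation p = 0.00266, adjusted p = 0.00798), and r was 0.443 without rats 7 and 13 (adjusted p = 0.0553, permutation). The coefficient of Lox was thus nearly as large without these rats although its p no longer passed with fewer rats, whereas the relation with Col3a1 rested in part on them. Sparc (r = 0.431, permutation p = 0.0513, adjusted p = 0.0615; rho = 0.503, permutation p = 0.0433, adjusted p = 0.052) and Col4a1 (r = 0.356, permutation p = 0.224; rho = 0.249, permutation p = 0.352) did not pass. Without rats 7 and 13, r was 0.260 for Sparc (adjusted p = 0.343) and -0.02 for Col4a1 (adjusted p = 0.948, permutation). Without rat 8 and library 8828, it was 0.726 for Sparc (adjusted p = 0.00174) and 0.643 for Col4a1 (adjusted p = 0.0171, permutation).

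**Figure D5:**
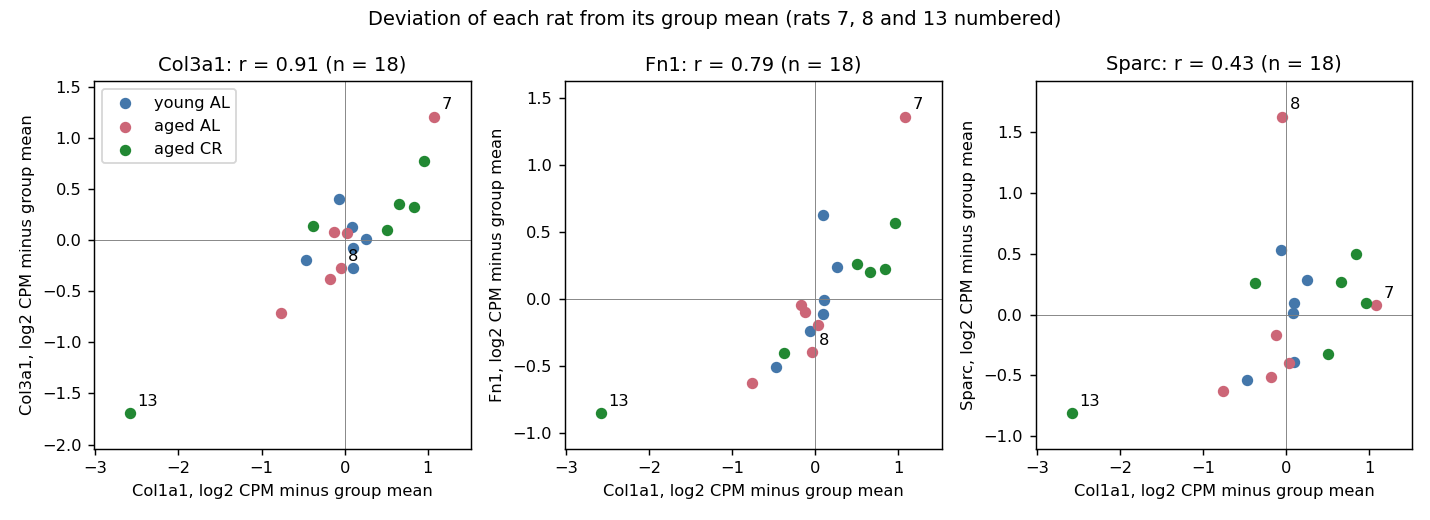
Deviation of log2 CPM from the group mean for Col1a1 (x axis) against Col3a1, Fn1 and Sparc (y axes) in 18 rats, coloured by group and with rats 7, 8 and 13 numbered. Col3a1 (r = 0.91) and Fn1 (r = 0.79) deviate with Col1a1, with rats 7 and 13 at the ends, and for Sparc (r = 0.43) rat 8 lies alone at the top.

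Among all genes tested, those most like the 7 matrix genes over the 18 libraries were sought by the Pearson correlation of log2 CPM with the mean standardized log2 CPM of the 7. The highest was ENSRNOG00000001249 on chromosome 20 (r = 0.897), with mean levels of 206 CPM in young rats, 169 in aged rats fed AL and 138 in aged CR rats. The next was ENSRNOG00000014872 on chromosome 2 (r = 0.893), with 19.3, 16.2 and 12.6 CPM in the same order. These correlations were chosen as the highest over all genes, share the libraries and their depth, and are given as a description. The deposited table pairs neither identifier with a symbol.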

How the data were processed

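Gastrocnemius RNA of 18 rats was sequenced from strand-specific, ribosomal RNA-depleted libraries. The authors trimmed reads with Cutadapt 1.2.1, aligned them to Rnor_6.0 with STAR 2.3.0e and counted them on genes of annotation release 96 with featureCounts 1.6.4. The deposited values are raw counts per gene and library. The counting command in the table's head sets no strand option, so reads of overlapping genes on opposite strands cannot be told apart. Of the value columns 0 were unused, 0 rows named no gene, and 0 of 45 library pairs within groups were identical.

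In R 4.3.3 with edgeR 4.0.16, genes were kept by filterByExpr (14646 genes), scaled by TMM factors and tested in 1 quasi-likelihood fit of all 18 libraries. Called genes had a Benjamini-Hochberg adjusted p up to 0.05 with a fold change from 1.5 up. Intervals of 95% used 15 degrees of freedom. CPM were TMM-scaled, and log2 CPM used a prior count of 1. Ratios of counts went through two-sided exact permutation tests and correlations through 100000 permutations within groups, both in Python 3.11.15 with scipy 1.17.1. The adjustment covered 6 ratio tests and 6 correlations, since Col1a2 gave none. On simulated counts in which 200 genes had a true log2 difference of 2 between aged and young AL rats, the fit called 97% of them over 14495 genes, and 5.37% of its calls were unchanged genes. At a true log2 difference of 1, it called 77% for aged CR against young rats (5.52% false calls) and 70.5% for aged CR against aged AL rats (2.76% false calls). The changed genes were drawn from all but the lowest genes, with counts drawn separately for each gene and library. These shares are thus not the power for the matrix genes. Between the aged groups the standard errors of the 7 ran from 0.19 (Mmp2) to 0.44 (Lox), against a median of 0.189 over all genes.

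The alternatives were DESeq2 1.42.0, other scalings, filters and thresholds, fits of the 2 groups compared, and leaving out libraries. The genes, lists and tests were chosen with earlier results of these data known. Genes to be named were the 8 matrix genes, members of 7 further lists of matrix genes, tissue markers, and the genes most like the 8. The lists and markers were not analysed here, because the tables at hand do not pair the identifiers with symbols.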

Additional observations from a re-analysis of the deposited data

Results flagged for a closer look

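Dixon's ratio, the distance of the outermost library from its neighbour divided by the spread of the 6, was computed for 11 measures in each group, with gene levels on the linear CPM scale. It passed the 95% critical value in 8 of 33 cases, where chance gives about 1 in 20, or 1.65 of 33. The 8 are not independent, since 4 are values of rat 7 and 3 of rat 8.

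Rat 7, an aged rat fed AL, stood apart for 4 matrix genes. Its Lox, at 94.2 CPM with the next rat at 22.4, had a gap of 0.915 of the range. For Fn1 it was at 677 CPM with the next rat at 255, a gap of 0.833. Its Col3a1 was 1944 CPM against 889 (gap 0.737), and its Col1a1 was 508 CPM against 245 (gap 0.717). It was not apart on the first principal component, at 8.98.

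Rat 8 of the same group stood apart for Sparc, at 1650.0 CPM with the next rat at 564 (gap 0.832), and for Col4a1, at 866 CPM against 447 (gap 0.653). On the first principal component of all genes it was at 110.9 and its neighbour at 8.98 (gap 0.833). In the aged CR group, library 8828 was at 77.7 and its neighbour at 2.00 (gap 0.783), and it had the highest Col4a1 of that group. What sets these libraries apart was not tested.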

How the results depend on the processing

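No paired analysis was possible because no replicate number is shared between the groups, which hold different animals. Of 1125 values from other settings, 996 kept their direction and their side of the threshold or, for counts of genes, stayed within 1.5 times. Part of these could hardly change. Settings that moved only a threshold used the same fit, and some of the libraries left out belonged to neither group compared. The share is thus no measure of robustness. The causes of the changes were not tested. Between aged and young AL rats, the number of called genes, 497 by edgeR's quasi-likelihood test, was 985 with DESeq2 on all libraries, 868 with DESeq2 and 258 with edgeR on the 2 groups alone, 330 with 10 counts required in every library and 124 at an adjusted p of at most 0.01. Between aged CR and young rats, 290 became 705, 952, 441 and, at the stricter p, 107, and 455 without rat 8 and library 8828. Between the aged groups, 202 became 443, 429, 130 and 44, with 129 without a filter on low counts and 477 without rat 8 and library 8828. Scaling moved higher and lower calls from 275 and 222 to 364 and 102 with library totals only and to 330 and 173 with upper quartiles between aged and young rats fed AL. Between aged CR and young rats it moved from 112 and 178 to 165 and 149 with upper quartiles, and between the aged groups from 122 and 80 to 68 and 198 with totals only. Totals only moved the median log2 difference of all genes from 0.007 to 0.18 between aged and young AL rats and from -0.02 to -0.19 between the aged groups.

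At the stricter adjusted p, 0 matrix genes passed between aged and young AL rats in edgeR's fit of all 18 libraries. Col1a1 had an adjusted p below 0.01 with DESeq2's Wald test and with edgeR's test on the 2 groups alone. Between aged CR and young rats 1 was called with DESeq2 on the 2 groups (Lox) and 1 without rat 8 and library 8828 (Col4a1). For Sparc the log2 difference of aged and young rats fed AL turned positive with edgeR on the 2 groups (0.00056), upper-quartile scaling (0.054), library totals (0.29), no mitochondrial genes (0.00076), no filter (0.014) and 10 counts in every library (0.024). That of Fn1 turned to 0.068 with library totals, and that of Sparc between the aged groups to 0.089 without rat 8 and library 8828. Of the correlations with Col1a1, that of Sparc passed with library totals (r = 0.497) and without rat 8 and library 8828 (0.726), that of Col4a1 passed without the same pair (0.643), and without rats 7 and 13 the values were 0.559 for Col3a1, 0.443 for Lox, 0.260 for Sparc and -0.021 for Col4a1.

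With libraries left out singly, 288 to 678, 185 to 578 and 69 to 385 genes passed in the 3 comparisons, in the order above. Matrix genes called were 1 throughout, 0 throughout and 0 to 1. Between aged and young rats fed AL the log2 difference ranged from -0.57 to 0.12 for Sparc, from -0.53 to 0.048 for Fn1, from -0.52 to 0.48 for Lox, from -0.87 to -0.38 for Col3a1, from -0.64 to -0.16 for Col4a1 and from -0.36 to -0.17 for Mmp2. Between aged CR and young rats it ranged from -0.69 to -0.34 for Col3a1. Between the aged groups it ranged from -0.18 to 0.33 for Col3a1, from -0.56 to 0.14 for Sparc, from -0.67 to -0.07 for Col4a1, from -0.68 to -0.12 for Fn1, from -1.32 to -0.46 for Lox, from -0.28 to -0.09 for Mmp2 and from 0.89 to 1.35 for Col1a1. The log2 ratio of Col1a1 to Col3a1 differed by -0.54 to -0.26 between aged CR and young rats. That of Col1a1 to Col4a1 differed by -0.55 to 0.015 between aged CR and young rats and by 0.93 to 1.52 between the aged groups. The ratio of Col1a1 to Col1a2 was not computed under any setting, since most libraries had 0 counts of Col1a2. The other 7 genes had at least 149 counts in every library.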
